A study of Mus musculus with 21 samples.

Results

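Transcripts of 33 genes that act in the repair of DNA double-strand breaks were followed in mouse striatum that had received an adeno-associated virus (AAV) carrying a Cas9 nuclease. The genes were taken by name from the 41128 gene symbols of the expression table and all 33 were found there. By role they comprised 9 genes of classical end joining, 5 of poly(ADP-ribose) polymerase (PARP) signalling and alternative end joining, 5 of end resection, 7 of homologous recombination and 7 of damage signalling. None of the 33 passed the threshold in any comparison. Over all genes tested, 0 or 1 passed in each, so this count does not set the repair genes apart. In each comparison most repair genes had an interval within 2-fold, which bounds the size of a difference. Of all genes, 71.9% to 92.7% did.

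A double-strand break is the lesion that Cas9 makes. In neurons, which no longer divide, breaks are closed mainly by classical end joining, in which the Ku proteins hold the ends, DNA-PKcs and Artemis prepare them, and ligase IV with XRCC4 and XLF seals them. Homologous recombination first resects the ends and then copies a sister chromatid, and is therefore a pathway of S and G2 phase. The signalling kinases ATM and ATR act on their substrates largely by phosphorylation, which a transcript count does not measure.

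The libraries came from striatal tissue of wild type mice, collected 3 weeks after virus was injected into the striatum. There were 2 sets of libraries. In set A the labels WT, Cas9 and GCas9 had 3 libraries each, and in set B the labels GFP, Cas9 and GCas9 had 4 each. All groups shared the wild type background and the tissue, and whether animals labelled WT were injected is not stated. GFP, a fluorescent protein, is the cargo of the control virus. The labels use GCas9 without its long form. From knowledge of the study, it is Cas9 joined to a fragment of Geminin, whose degradation signal gives the nuclease a shorter life. The promoter of each virus, the guide RNA and the animal behind each library are not given in the sources used here, and the age is 3 weeks in one label and 3 months in another. Where nothing says that libraries are separate animals, a p-value measures only the spread between these libraries. Whole tissue was sequenced, so fewer cells of a type and less RNA per cell cannot be told apart, and a response in a few transduced cells is averaged with all others.

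Set A had 20.34 to 28.05 M reads on genes per library and set B had 6.09 to 11.07 M. Levels are normalized read counts, which are reads divided by a size factor for each library. The sets were scaled apart, so levels are compared within a set. All 14 medium spiny neuron markers, which define the striatum, had reads in every library. The Cas9 library 1 of set A stood apart by its ependymal and choroid plexus genes (10 genes, summed level 293817 against 1392 to 13007 in the other 8), as did Cas9 library 1 of set B (10886 against 430 to 963). Without the first of these, the median log2 fold change of the 33 genes for Cas9 against WT was -0.03, as with it. Without the second, the median for Cas9 against GFP was 0.06, and 0.03 with it. Cas9 library 1 of set A also had the highest sum of 12 oligodendrocyte genes (389332 against 201244 to 319349 in the other 8). All 12 were above 0 for Cas9 against WT (median log2 fold change 0.48) and below 0 for GCas9 against Cas9 in set A (median -0.48). At an unadjusted p under 0.05 there were 12 and 11 (limma, 11.8% and 5.45% of all genes), and 0 passed. Their part in the repair gene values was not tested. GCas9 library 3 of set A stood apart by immune genes, with a summed level of interferon-stimulated genes of 63140 against 2019 to 9623 in the other 8, and of B and plasma cell genes of 48701 against 476 to 17681. It also had the highest sums of microglia (46554) and of T and NK cell genes (6099) of the set. Without it, the median of the 33 genes was -0.01 for GCas9 against WT (0.00 with it) and 0.02 for GCas9 against Cas9 (0.06 with it). Over all genes, 1 of 15924 passed for Cas9 against WT, 1 for GCas9 against WT, and 0 in the other comparisons.

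The repair genes spanned a wide range of levels. Per kilobase of exon, Parp1, which senses breaks and builds poly(ADP-ribose) chains, was the highest of the 33 in both sets (344 in set A and 137 in set B). In set A it was followed by Trp53bp1 (239), Lig3 (194), Rnf168 (180) and Parp2 (157), and in set B by Xrcc3 (116), Trp53bp1 (80.0), Xrcc6 (74.5) and Parp2 (68.5). The lowest in both sets was Exo1, a resection nuclease, at 2.48 and 1.00 per kilobase, with Palb2, Polq, Rbbp8, Brca2 and Brca1 also among the 8 lowest of each set. The lowest places thus held several genes of resection and recombination, while other genes of these roles stood high. Xrcc3, for recombination, was 6th in set A and 2nd in set B, and Nbn, for resection, was 9th and 8th.

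**Figure D1:**
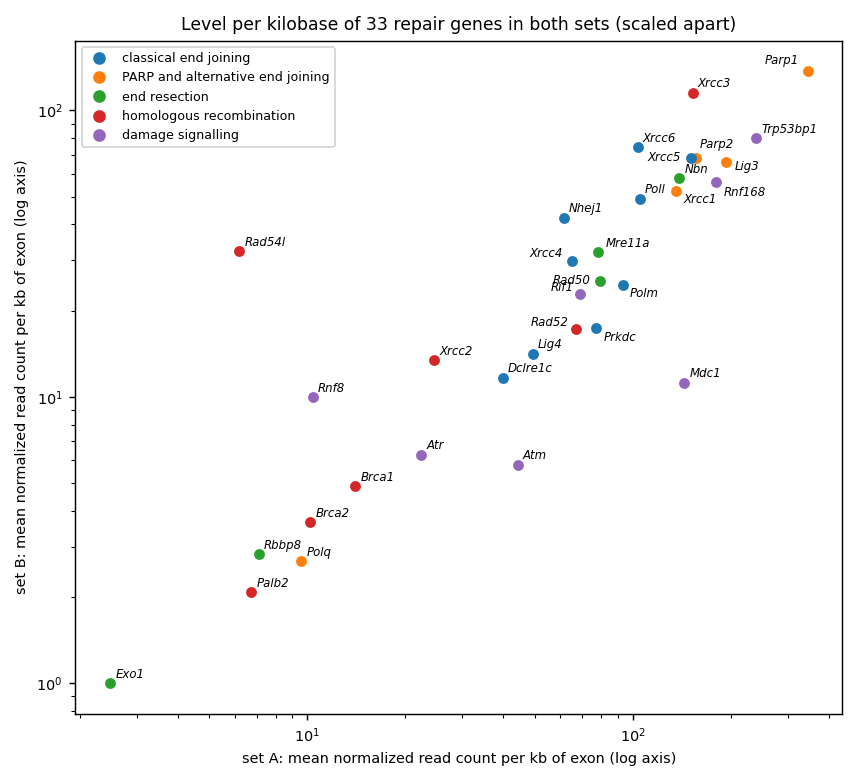
Mean normalized read count per kilobase of exon of the 33 repair genes in set A (x axis, 9 libraries) and set B (y axis, 12 libraries), both on log axes, coloured by role. Parp1 is highest and Exo1 lowest in both sets, and Rad54l and Mdc1 lie farthest from the line of the others.

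Rad54l and Mdc1 held different places in the 2 sets. Rad54l, a motor protein of recombination, was 32nd in set A at 28.4 to 79.2 and 13th in set B at 198 to 284. Its ratio of set A to set B was 0.192, where the median over 14486 genes tested in both sets was 2.31 and 0.483% of genes had a lower ratio. Mdc1, the scaffold that binds phosphorylated H2AX, was 8th in set A and 24th in set B, with a ratio of 12.9 that lay above 98.03% of genes. The sets differ in depth, normalization and control group, so these ratios describe the tables and compare no treatment. Part of the exon length of Rad54l (15.4%) overlaps exons of Lrrc41 on the other strand, and Lrrc41 had a ratio of 1.40. Strand was not stated for the counting, so reads in that overlap cannot be assigned to either gene.

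The promoter windows of 2 recombination genes are shown because both genes were highest in set A in the library with the most RNA of cycling-cell genes, as described further on. They are 2 of the 8 repair genes that were highest in that library, and serve as an illustration. Both come from RefSeq on GRCm38.p6, read 5′ to 3′ toward the annotated start, with the CCAAT box in capitals. Brca1, the scaffold that promotes resection and recombination, starts on the minus strand of chromosome 11 and its window is chr11:101551956-101552148. Rad54l starts on the minus strand of chromosome 4 and its window is chr4:116123691-116123839. Each window ends before the first exon of a divergent neighbour, Nbr1 and Pomgnt1.
Brca1: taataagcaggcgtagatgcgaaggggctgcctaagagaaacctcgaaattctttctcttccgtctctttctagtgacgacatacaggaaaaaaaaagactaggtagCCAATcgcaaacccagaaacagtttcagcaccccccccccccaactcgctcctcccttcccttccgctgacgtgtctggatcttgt
Rad54l: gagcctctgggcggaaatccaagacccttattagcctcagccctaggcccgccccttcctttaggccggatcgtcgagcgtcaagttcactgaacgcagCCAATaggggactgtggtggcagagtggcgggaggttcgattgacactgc

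The CCAAT box, a common element of housekeeping and cell cycle promoters, lies 82 to 86 bases before the start of Brca1 and 46 to 50 before that of Rad54l. On either strand of the 250 bases before the start, CCAAT was present in 11 of the 25 repair genes that matched the promoter table (44.0%) and in 37.5% of its 27025 genes. The E2F-type letters TTTCGCGC, TTTGGCGC, TTTCCCGC or TTTGCCGC were present in 3 of 25, namely Brca2, Mdc1 and Xrcc6, and in 2.16% of all genes. Of the 8 repair genes highest in the library named above, Dclre1c also had CCAAT, while Parp1 and Xrcc6 did not. A link of CCAAT to cycling cells was not tested. A match is a description of the letters and shows no binding.

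Against the control groups, the question was whether striatum given Cas9 or GCas9 virus differed in these transcripts. For Cas9 against WT in set A, 0 of 33 repair genes passed an adjusted p of 0.05 (limma, Benjamini-Hochberg over all genes tested), where 0.00628% of all genes did. At an unadjusted p under 0.05 there were 0 of 33 by limma, edgeR and DESeq2, against 11.8% of all genes by limma. The median log2 fold change was -0.03 (12 higher, where 49.1% of all genes were, and 21 lower), beside a median of -0.00 over all genes. Estimates ran from -0.54 for Exo1 to 0.17 for Palb2, and 32 of 33 were within 1.2-fold. The 95% interval lay within 1.5-fold for 26 genes (65.4% of all genes) and within 2-fold for 32 (82.0%).

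**Figure D2:**
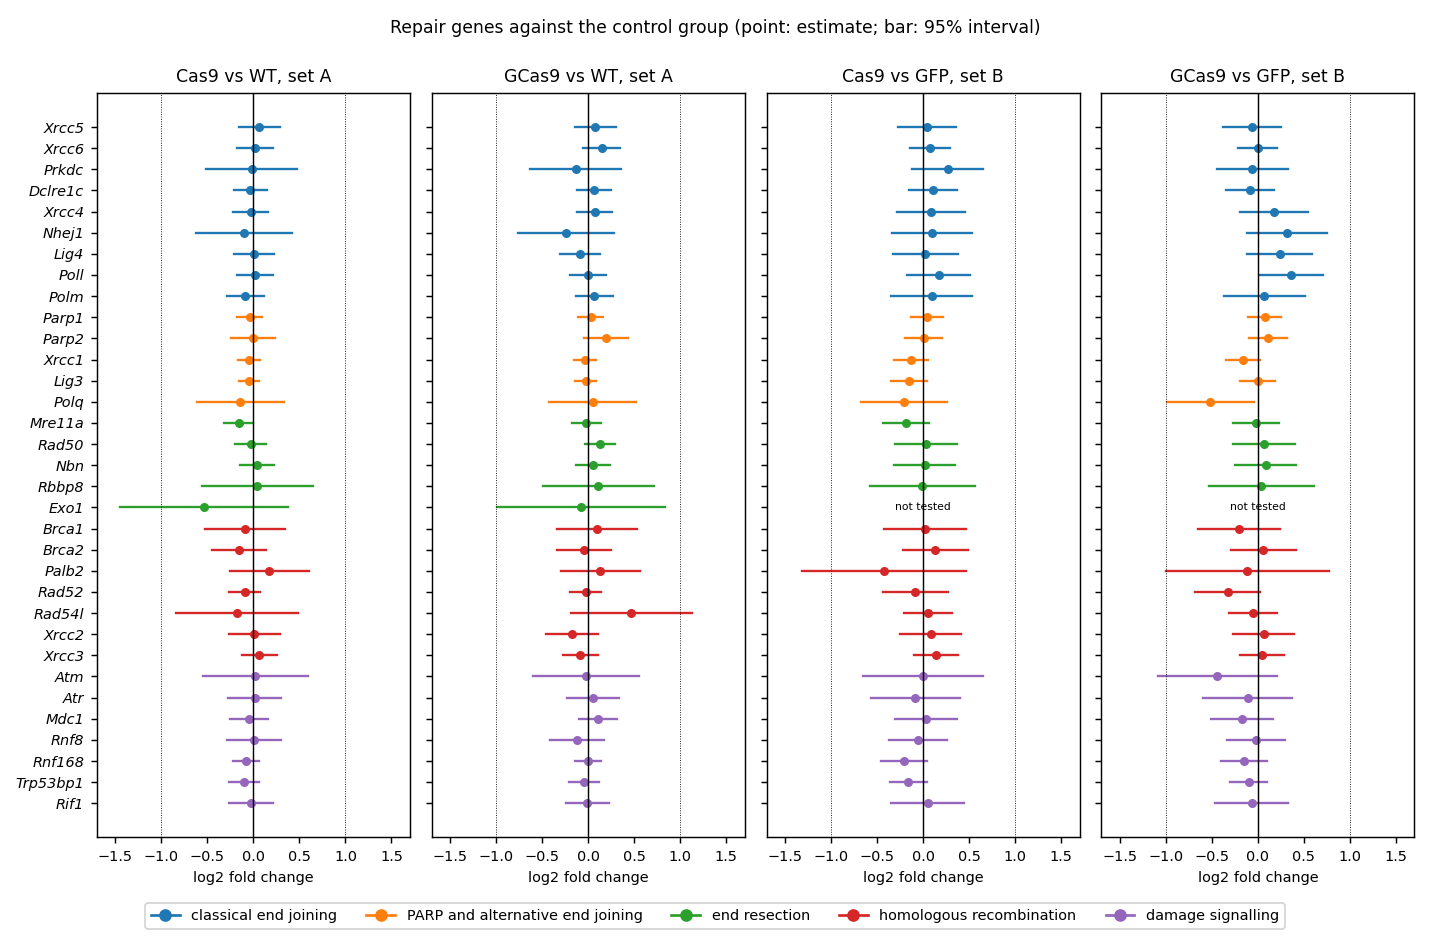
Log2 fold change of each repair gene (points) with its 95% interval (bars) for Cas9 and GCas9 against WT in set A and against GFP in set B, coloured by role, with dotted lines at 2-fold. All intervals include 0 except those of Polq and Poll for GCas9 against GFP, and those of Exo1, Palb2 and Rad54l in set A or B are among the widest. Exo1 was too low to be tested in set B.

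GCas9 against WT gave the same count, 0 of 33 passing (0.00628% of all genes, limma), also with the replicate number as a block, where 2 of all genes passed in place of 1, and 0 at an unadjusted p under 0.05 by limma, edgeR and DESeq2 (6.77% of all genes by limma). The median was 0.00 with 17 genes higher (49.9% of all genes) and 16 lower, and estimates ran from -0.24 for Nhej1 to 0.47 for Rad54l. Intervals lay within 1.5-fold for 27 genes (68.5% of all genes) and within 2-fold for 32 (83.2%).

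In set B, Exo1 had a mean of 8.44, under the filter of 10, so 32 genes were tested. Cas9 against GFP gave 0 of 32 passing (limma, 0.0% of all genes) and 0 at an unadjusted p under 0.05 by limma, edgeR and DESeq2 (6.24% by limma). The median was 0.03 (20 higher, 12 lower) with 28 intervals within 1.5-fold (68.8% of all genes) and 31 within 2-fold (88.7%). No repair gene was free of overlap between these groups, against 4.68% of all genes. GCas9 against GFP gave 0 of 32 passing (limma, 0.0%) and 2 at an unadjusted p under 0.05, Polq and Poll, or 6.48% of all genes. edgeR also gave 2 and DESeq2 0. The median was -0.02 (13 higher, 19 lower) with 22 intervals within 1.5-fold (69.0%) and 30 within 2-fold (88.1%). The comparisons of a set share their control libraries, so their values are not independent.

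The 9 genes of classical end joining, the main pathway of neurons, had log2 fold changes of -0.10 to 0.07 for Cas9 against WT in set A, with 8 intervals within 1.5-fold. Xrcc5 (Ku80) was at 427, 365 and 334 in WT, 390, 375 and 409 with Cas9 and 375, 389 and 417 with GCas9. Its partner Xrcc6 (Ku70) was at 427, 443 and 466 in WT, 471, 422 and 457 with Cas9, and 511, 440 and 532 with GCas9. The groups overlapped for both Ku genes, although 2 GCas9 libraries held the highest Xrcc6 of the set. For GCas9 against WT, Xrcc6 had a log2 fold change of 0.15 ± 0.09 (SE, adjusted p = 0.76 by limma), with a 95% interval of 0.964 to 1.27-fold. Among the 9, no group of 3 libraries lay wholly apart from WT except for Lig4, the ligase of this pathway, with GCas9 (256, 240 and 240 against 266, 260 and 257 in WT), a log2 fold change of -0.09 ± 0.09 (SE, adjusted p = 0.85 by limma). Separation in either direction occurred in 2 of 33 repair genes and in 16.2% of all genes.

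In set B, all 9 end joining genes had estimates above 0 for Cas9 against GFP, from 0.02 to 0.27, and none passed at an adjusted or unadjusted p of 0.05. Over all genes, 48.7% had an estimate above 0 in that comparison. Xrcc5 was at 164, 202, 189 and 147 with GFP, 141, 164, 225 and 196 with Cas9, and 171, 145, 176 and 176 with GCas9. Xrcc6 was at 348, 325, 313 and 322 with GFP, 349, 314, 410 and 313 with Cas9, and 316, 338, 364 and 292 with GCas9. Again the groups overlapped, with Cas9 libraries among both the highest and the lowest.

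Poll, a gap-filling polymerase of end joining, was at 259, 225 and 246 in WT, 236, 249 and 253 with Cas9, and 238, 241 and 248 with GCas9, and the groups overlapped. In set B, Poll was at 72.6, 98.3, 132 and 106 with GFP, 129, 97.3, 111 and 114 with Cas9, and 134, 122, 123 and 136 with GCas9. GFP library 3 reached the GCas9 range, and GFP library 1 was the lowest of the set. The log2 fold change for GCas9 against GFP was 0.36 ± 0.16 (SE, unadjusted p = 0.0385, adjusted p = 0.75 by limma). It was between 0.21 and 0.49 when single libraries were left out. Dclre1c (Artemis, the nuclease that opens hairpin ends) was at 105, 108, 105 and 113 with GFP, 122, 120, 112 and 111 with Cas9, and 103, 112, 113 and 80.4 with GCas9. GCas9 library 4 was the one low value there. Of the other end joining genes, Xrcc4, the scaffold of ligase IV, was between 254 and 295 in set A and between 99.4 and 169 in set B. Nhej1 (XLF) was between 50.3 and 90.5 and between 33.9 and 71.1, and Polm, a second gap-filling polymerase, between 306 and 371 and between 64.1 and 115.

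Parp1 and Parp2 encode the nuclear enzymes that mark breaks with poly(ADP-ribose). Parp1 was at 1774, 1925 and 1785 in WT, 1778, 1702 and 1850 with Cas9 and 1792, 1808 and 1989 with GCas9. In set B it was at 640, 658, 797 and 733 with GFP, 728, 695, 698 and 787 with Cas9, and 780, 703, 782 and 699 with GCas9. The 95% interval for Cas9 was 0.884 to 1.07-fold of WT and 0.913 to 1.16-fold of GFP, so at the depth of this gene a change of 1.2-fold lay outside both. Parp2 was at 591, 497 and 540 in WT, 468, 592 and 563 with Cas9, and 669, 605 and 588 with GCas9. The set B libraries were at 259, 231, 235 and 241 with GFP, 211, 245, 264 and 253 with Cas9, and 238, 256, 256 and 293 with GCas9. A GCas9 library held the highest Parp2 in each set, while the groups overlapped. For GCas9 against WT the log2 fold change was 0.19 ± 0.11 (SE, adjusted p = 0.74 by limma).

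**Figure D3:**
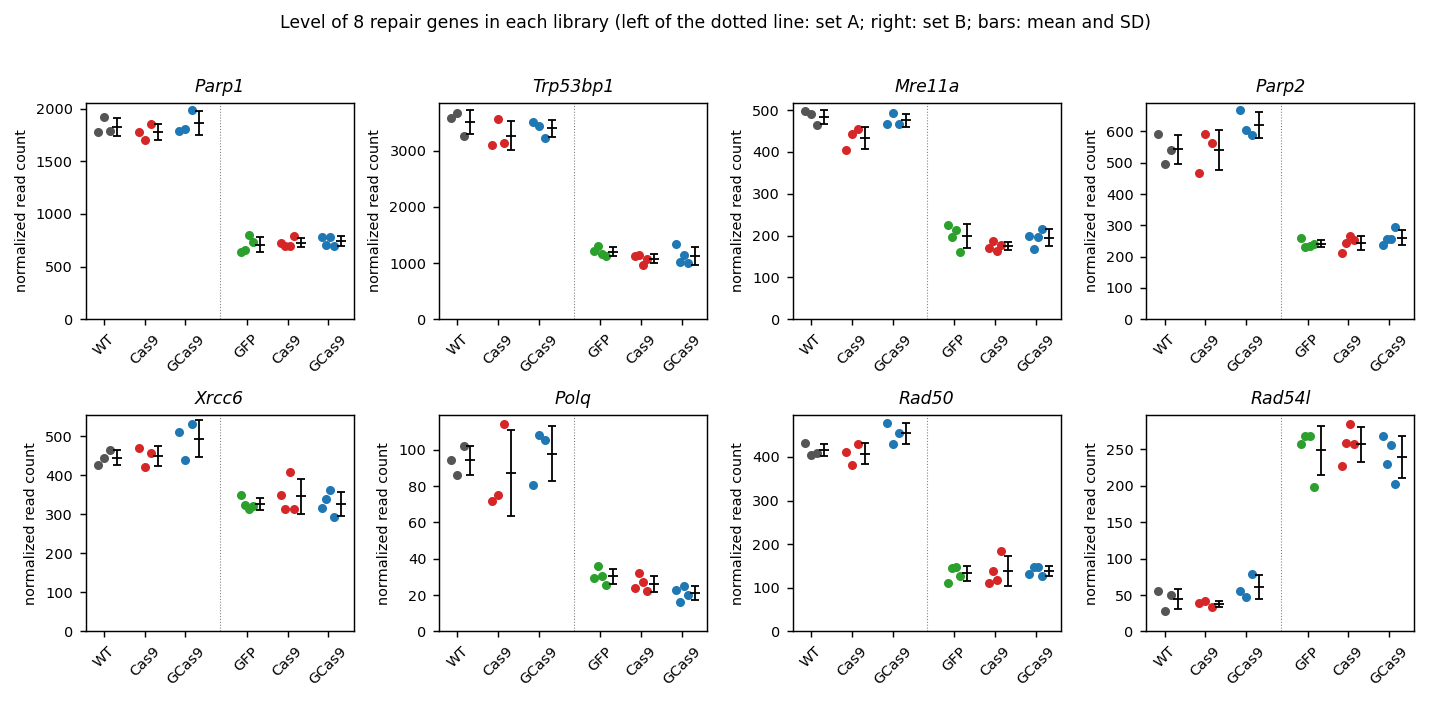
Normalized read counts of 8 repair genes in each library (points), with the group mean and SD beside them, for set A (left of the dotted line) and set B (right). Groups overlap for most genes, while Mre11a is lower in all 3 Cas9 than in all 3 WT libraries of set A, and Polq is lower in all 4 GCas9 than in all 4 GFP libraries of set B.

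Lig3, the ligase of alternative end joining, was at 1426, 1376 and 1508 in WT, 1353, 1403 and 1409 with Cas9, and 1401, 1395 and 1423 with GCas9. In set B, Lig3 was at 530, 475, 481 and 498 with GFP, 434, 486, 387 and 483 with Cas9, and 560, 476, 475 and 473 with GCas9. The Cas9 libraries of set B were in part lower, and the log2 fold change against GFP was -0.15 ± 0.09 (SE, adjusted p = 0.81 by limma). A share of its exon length (25.1%) overlaps Rffl on the other strand, and reads there cannot be assigned. Its partner Xrcc1, a scaffold, was between 753 and 822 in set A and between 264 and 344 in set B. It differed from WT by -0.05 for Cas9 and -0.04 for GCas9 on the log2 scale. Against GFP in set B, Xrcc1 was at -0.14 ± 0.09 for Cas9 (SE, adjusted p = 0.82 by limma). For GCas9 it was at -0.16 ± 0.09 (SE, adjusted p = 0.79 by limma).

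Polq, the polymerase of microhomology-mediated joining, was the one repair gene whose groups did not overlap in set B. It was at 29.5, 35.9, 30.5 and 25.5 with GFP, 23.7, 31.97, 27.1 and 22.1 with Cas9, and 23.0, 16.2, 24.9 and 19.9 with GCas9. Every GCas9 library was below every GFP library, and the Cas9 libraries spanned both. Groups without overlap, in either direction, made up 4.16% of all genes. The log2 fold change for GCas9 against GFP was -0.52 ± 0.22 (SE, unadjusted p = 0.0332, adjusted p = 0.74 by limma). The values rest on 15 to 31 reads per GCas9 library and 28 to 42 per GFP library. In set A, Polq was at 94.3, 86.2 and 102 in WT and 80.5, 108 and 105 with GCas9, and the groups overlapped.

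The resection complex of Mre11a, Rad50 and Nbn, which holds and trims broken ends, showed the one separation from WT by Cas9. Mre11a, its nuclease, was at 497, 490 and 465 in WT, 405, 444 and 454 with Cas9, and 467, 494 and 467 with GCas9. The Cas9 libraries lay below all others of set A, where separation from WT in either direction was found in 1 of 33 repair genes and in 19.6% of all genes. The log2 fold change was -0.16 ± 0.07 for Cas9 against WT (SE, unadjusted p = 0.0502, adjusted p = 0.42 by limma), with an interval of 0.804 to 1.00-fold. Cas9 library 1, which held the choroid plexus genes, was the lowest, and without it the value was -0.11. In set B, Mre11a was at 226, 197, 214 and 161 with GFP, 171, 186, 164 and 177 with Cas9, and 198, 169, 197 and 217 with GCas9. There GFP library 4 was the lowest of the set, so the groups overlapped, and the log2 fold change for Cas9 against GFP was -0.18 ± 0.12 (SE, adjusted p = 0.82 by limma).

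Rad50, the ATPase of the complex, was at 431, 405 and 409 in WT, 412, 382 and 429 with Cas9, and 478, 430 and 455 with GCas9. All GCas9 libraries were above all Cas9 libraries, by a narrow margin, and overlapped with WT. Nbn, the subunit that recruits ATM, was at 320, 352 and 361 in WT, 344, 339 and 377 with Cas9, and 346, 351 and 374 with GCas9. In set B, Nbn was at 118, 172, 137 and 147 with GFP, 123, 128, 178 and 153 with Cas9, and 167, 120, 165 and 159 with GCas9. Neither gene separated Cas9 or GCas9 from the control group in either set. Rbbp8 (CtIP), which starts resection, was between 68.8 and 129 in set A and between 18.4 and 54.3 in set B.

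Exo1 was at 25.02, 17.2 and 27.7 in WT, 18.7, 13.8 and 14.2 with Cas9, and 20.1, 13.0 and 38.5 with GCas9. Its log2 fold change for Cas9 against WT was the most negative of the 33, -0.54 ± 0.40 (SE, adjusted p = 0.58 by limma), on 46 reads in the Cas9 group and 74 in WT. The interval ran from 0.365 to 1.29-fold, so a 2-fold lower level lay inside it.

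Recombination genes differed widely in level. Per kilobase of exon they ran from 153 for Xrcc3 to 6.18 for Rad54l in set A, and from 116 for Xrcc3 to 2.08 for Palb2 in set B. Xrcc3, which acts in recombination, was high, at 439, 418 and 407 in WT, 451, 426 and 444 with Cas9, and 361, 442 and 390 with GCas9. In set B, Xrcc3 was at 308, 273, 300 and 330 with GFP, 375, 334, 333 and 298 with Cas9, and 263, 365, 344 and 288 with GCas9. Rad52, a strand-annealing protein, was at 408, 379 and 397 in WT, 376, 393 and 342 with Cas9, and 388, 381 and 391 with GCas9. In both genes the groups overlapped. Rad52 in set B was at 123, 88.9, 102 and 119 with GFP, 106, 91.7, 110 and 98.2 with Cas9, and 108, 91.5, 85.1 and 62.9 with GCas9, where library 4 was the lowest. The log2 fold change for GCas9 against GFP was -0.33 ± 0.16 (SE, adjusted p = 0.77 by limma).

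Xrcc2, also a recombination gene, was lower in all GCas9 libraries (106, 122 and 123) than in all WT libraries (126, 132 and 139), with a log2 fold change of -0.18 ± 0.12 (SE, adjusted p = 0.78 by limma). In set B its groups overlapped. Brca2, a mediator of recombination, and Palb2, which links it to BRCA1, had estimates for Cas9 of -0.16 and 0.17 against WT, and of 0.13 and -0.42 against GFP. Palb2 rests on 5 to 27 reads per GFP or Cas9 library in set B.

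Among the signalling genes, Trp53bp1 (53BP1), which shields ends from resection, was at 3584, 3667 and 3264 in WT, 3107, 3568 and 3136 with Cas9, and 3515, 3439 and 3231 with GCas9. In set B it was at 1216, 1306, 1162 and 1119 with GFP, 1124, 1140, 960 and 1072 with Cas9, and 1343, 1021, 1138 and 1004 with GCas9. In each set 2 Cas9 libraries were below all controls, and the groups overlapped. Its log2 fold change for Cas9 was -0.10 ± 0.07 against WT (SE, adjusted p = 0.56 by limma) and -0.16 ± 0.09 against GFP (SE, adjusted p = 0.81 by limma). Exons of Tubgcp4 on the other strand overlap 15.04% of its exon length.

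Rnf168, a ubiquitin ligase that recruits 53BP1, was at 851, 823 and 781 in WT, 728, 798 and 802 with Cas9, and 811, 847 and 797 with GCas9. Rnf168 in set B was at 235, 282, 320 and 258 with GFP, 215, 250, 251 and 228 with Cas9, and 269, 263, 250 and 202 with GCas9. Its log2 fold change of -0.21 ± 0.12 for Cas9 against GFP had the smallest unadjusted p of the 32 genes in that comparison (SE, adjusted p = 0.81 by limma). All 7 signalling genes had estimates below 0 for GCas9 against GFP, from -0.44 for Atm to -0.02 for Rnf8, and none passed at an adjusted or unadjusted p of 0.05. Over all genes, 49.1% were above 0 in that comparison. Rif1, which acts with 53BP1, was between 653 and 846 in set A and between 146 and 310 in set B, Rnf8, the ligase upstream of Rnf168, between 99.5 and 133 and between 92.6 and 137, and Mdc1 between 983 and 1240 and between 62.1 and 108.

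The 3 kinases of the damage response, Atm, Atr and Prkdc, are encoded by long transcripts and differed between libraries of 1 group. Atm was at 545, 522 and 318 in WT, 389, 423 and 577 with Cas9, and 336, 555 and 459 with GCas9. In set B, Atm was at 86.3, 83.8, 43.8 and 49.1 with GFP, 84.7, 103, 40.1 and 44.2 with Cas9, and 51.4, 40.9, 49.0 and 43.8 with GCas9. In set B, libraries 1 and 2 of GFP and of Cas9 were above all others, and all 4 GCas9 libraries lay among the low ones. Prkdc (DNA-PKcs) in set B was at 243, 263, 167 and 196 with GFP, 287, 336, 235 and 195 with Cas9, and 200, 177, 198 and 253 with GCas9. The same GFP and Cas9 libraries 1 and 2 were the highest of their groups in Atm, Atr and Prkdc. For Atm, the log2 fold change for GCas9 against GFP was -0.44 ± 0.30 (SE, adjusted p = 0.82 by limma).

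Genes with more than 15 kilobases of exon (386 tested in set B) had median deviations from the set mean of 0.08, 0.09, -0.03 and -0.00 in the GFP libraries of set B. They were at 0.11, 0.06, -0.13 and -0.05 in the Cas9 libraries and 0.05, -0.10, 0.00 and -0.02 in the GCas9 libraries (log2 scale). The GFP and Cas9 libraries 1 and 2 were thus above the others of their groups in long genes too, by less than in the kinases. Of the kinases only Atr, with 23629 bases of exon, is that long, and Prkdc has 13187 and Atm 10338. Among the other repair genes with more exon than Atm, Trp53bp1 and Rif1 had the same order in both groups, and Brca2, Rbbp8 and Rnf8 did not. The part of transcript length in the kinase values was not tested.

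**Figure D4:**
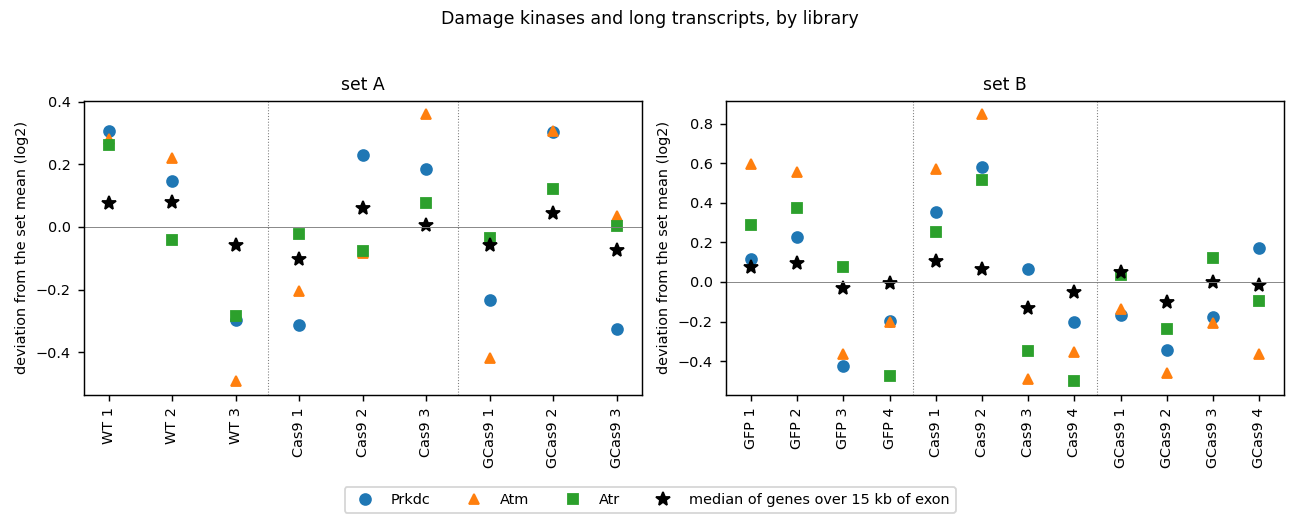
Deviation from the set mean on the log2 scale of Prkdc, Atm and Atr (coloured points) and the median deviation of genes with over 15 kb of exon (stars) in each library of set A (left) and set B (right), with dotted lines between groups. Libraries 1 and 2 of GFP and of Cas9 in set B lie above 0 for all 3 kinases and for the long genes, and the kinases spread more widely than the long genes.

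The direct comparison of GCas9 with Cas9 asked whether the modified nuclease differed from the unmodified one. In set A, 24 of 33 repair genes had estimates above 0 (54.3% of all genes), 9 below, with a median log2 fold change of 0.06 beside 0.01 over all genes, and 0 passed (limma, 0.0% of all genes). At an unadjusted p under 0.05 there were 0 by limma (5.45% of all genes), 1 by edgeR and 0 by DESeq2. The count at an unadjusted p reached 6 without GCas9 library 2, a fit whose share of all genes is not given here. It reached 10 with array weights, where 4515 of 15924 genes did. All 5 resection genes and all 5 PARP and alternative end joining genes were above 0. The groups did not overlap for 4 genes, Polm, Mre11a, Rad50 and Rad54l, all higher with GCas9, where 8.84% of all genes did not overlap. Intervals lay within 1.5-fold for 25 genes (67.2%) and within 2-fold for 31 (83.3%). In set B, 15 genes were higher (50.6% of all genes) and 17 lower with a median of -0.02, 0 passed (limma, 0.0%), and 0 reached an unadjusted p under 0.05 by limma, edgeR or DESeq2 (3.84% of all genes by limma). No repair gene was free of overlap there, against 2.02% of all genes, and 24 intervals lay within 1.5-fold (70.2%) and 30 within 2-fold (88.6%).

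Prkdc, Lig3 and Dclre1c had the smallest p-values of the GCas9 to Cas9 comparison in set B, with log2 fold changes of -0.33 ± 0.18, 0.15 ± 0.09 and -0.19 ± 0.12 (SE, adjusted p = 0.99 for each by limma). For the mean of both sets, 0 of 33 passed (limma, 0.0% of all genes) and 1 gene, Parp2, reached an unadjusted p under 0.05 (3.72% of all genes). edgeR gave 1 and DESeq2 2. Parp2 was higher by 0.15 ± 0.07 on the log2 scale (SE, unadjusted p = 0.0429, adjusted p = 0.9999 by limma). For the mean, 20 genes were above 0 (52.0% of all genes). All 33 intervals lay within 2-fold (92.7% of all genes) and 30 within 1.5-fold (78.1%).

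The difference between the sets in this comparison was also tested. No gene of the 33 passed (limma, 0.0% of all genes), and 1, Rad54l, reached an unadjusted p under 0.05 (4.34% of all genes), as did 2 by edgeR and 1 by DESeq2. The difference was above 0 for 11 genes (49.4% of all genes), and its interval lay within 1.5-fold for 13 (49.4%) and within 2-fold for 26 (71.9%). Rad54l was at 54.9, 28.4 and 49.4 in WT, 38.5, 41.4 and 33.4 with Cas9, and 55.6, 47.5 and 79.2 with GCas9. In set B it was at 258, 268, 269 and 198 with GFP, 227, 259, 284 and 257 with Cas9, and 269, 230, 256 and 202 with GCas9. All 3 GCas9 libraries of set A were above the Cas9 libraries, and no such order held in set B. The log2 fold change of GCas9 against Cas9 was 0.65 ± 0.29 in set A (SE, adjusted p = 0.92 by limma) and -0.10 ± 0.12 in set B (SE, adjusted p = 0.99 by limma), and their difference was -0.75 ± 0.28 (SE, unadjusted p = 0.0164, adjusted p = 0.99 by limma). The fit of the difference took a common spread for both sets, while the within-group SD of Rad54l was 0.37 in set A and 0.18 in set B (log2 scale). Its SE thus averages the wider spread of set A with the narrower one of set B. Without GCas9 library 3 of set A the set A value was 0.44 and no repair gene reached an unadjusted p under 0.05 for the difference.

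Levels of cycling-cell genes stand beside these. Of 25 markers of S phase and mitosis, 25 had estimates above 0 for GCas9 against Cas9 in set A (median 0.84) and all 24 tested were below 0 in set B (median -0.42). None passed the threshold in either (limma), and 14 and 4 had an unadjusted p under 0.05 (5.45% and 3.84% of all genes). For GCas9, all 25 were above 0 against WT and all 24 below 0 against GFP. At an unadjusted p under 0.05 there were 6 and 9 (limma, 6.77% and 6.48% of all genes). For Cas9, 8 of 25 were above 0 against WT and 4 of 24 against GFP. The summed levels of the 25 markers were 2902, 2333 and 2923 in WT, 2554, 2353 and 2560 with Cas9, and 3656, 2698 and 5986 with GCas9. In set B they were 1733, 1518, 2017 and 1181 with GFP, 981, 1341, 1865 and 1477 with Cas9, and 1304, 1367, 1140 and 699 with GCas9. None of the 25 was at 0 in every library of a group. GCas9 library 3 of set A, with the highest sum, also held the highest Exo1 (38.5), Brca1 (161), Palb2 (57.7) and Rad54l (79.2) of the set, and with them the highest Xrcc6, Dclre1c, Xrcc4 and Parp1, 8 of the 33 in all. WT library 1, at a cycling sum of 2902, held the highest value of more of them, 10 of the 33. GFP library 3 of set B, the highest there, held the highest Exo1 (15.2), Brca1 (60.0) and Palb2 (25.7), and also the highest Parp1 and Rnf168, 5 of the 33. Cas9 library 3 of set B held as many, Rad54l among them. Without GCas9 library 3, the log2 fold changes of GCas9 against Cas9 in set A were 0.07 for Exo1 and 0.01 for Brca1, against 0.47 and 0.18 with it. This is also the library with the highest immune sums. The part of cycling cells and of immune cells in these values was not tested.

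**Figure D5:**
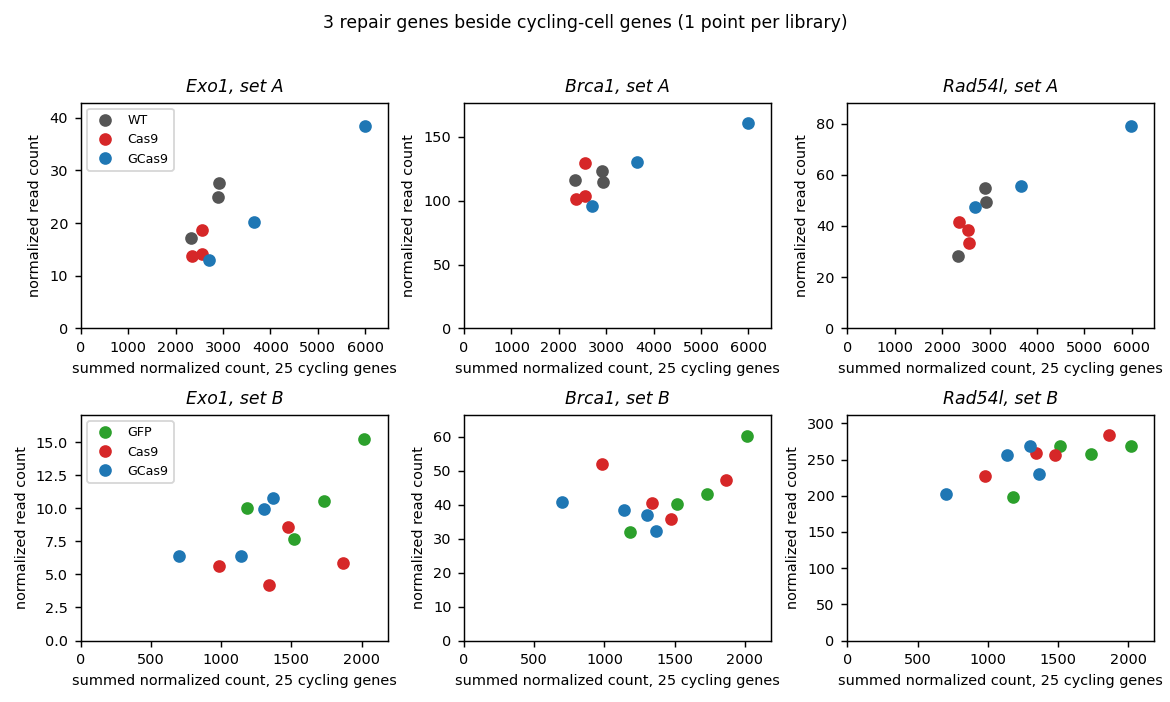
Normalized read counts of Exo1, Brca1 and Rad54l (y axis) against the summed normalized count of 25 cycling-cell genes (x axis) in each library of set A (top) and set B (bottom), coloured by group. The GCas9 library of set A at a sum of 5986 is the highest in all 3 genes, and the GFP library of set B at 2017 is the highest in Exo1 and Brca1.

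Immune and p53 genes, other transcripts that respond to virus or damage, give a scale for these values. For Cas9 against WT, all 20 microglia markers had estimates above 0 with a median of 0.60, all 24 interferon-stimulated genes with a median of 1.93, and 17 of 21 p53 targets with a median of 0.25. None of these 3 lists had a gene past the threshold (limma), and 13 of 20, 2 of 24 and 6 of 21 of their genes had an unadjusted p under 0.05, where 11.8% of all genes did. Of 15 activated microglia genes, with a median of 2.55, 1 passed (adjusted p = 0.0383 by limma). The median size of a log2 fold change, without its sign, was 0.04 over the 33 repair genes for Cas9 against WT, beside 0.12 over all genes tested. It was 0.07 beside 0.09 for GCas9 against WT, 0.08 beside 0.11 for Cas9 against GFP and 0.09 beside 0.11 for GCas9 against GFP. For GCas9 against Cas9 it was above that of all genes, at 0.101 beside 0.0889 in set A and 0.102 beside 0.0959 in set B, and so it was for the difference between the sets (0.165 beside 0.143). For Cas9 against GFP the medians of the 3 lists were -0.02, -0.08 and 0.02. The part of the immune cells in the repair gene values was not tested.

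A wider list of 62 pathway genes gave a similar count, with 58 in the table and 57 tested in set A and 54 in set B. None passed the threshold in any of the 8 comparisons (limma). At an unadjusted p under 0.05 there were 8 for Cas9 against WT, 1 for GCas9 against WT, 5 for GCas9 against Cas9 in set A and 1 in each comparison of set B, with 2 for the mean of the sets and 3 for their difference. The shares of all genes were 11.8%, 6.77% and 5.45% for the comparisons of set A, and between 3.84% and 6.48% for those of set B. Groups did not overlap for 12 of 57 pathway genes in Cas9 against WT (19.6% of all genes), 5 in GCas9 against WT (16.2%) and 10 in GCas9 against Cas9 of set A (8.84%). In set B this held for 2 of 54 in Cas9 against GFP (4.68%) and 0 in the other comparisons of the set. Slx4, a scaffold for structure-specific nucleases, was at 907, 892 and 927 in WT, 764, 785 and 820 with Cas9, and 932, 889 and 955 with GCas9. The Cas9 libraries were below all others, with a log2 fold change of -0.20 ± 0.05 against WT (SE, adjusted p = 0.41 by limma) and a difference of 0.23 ± 0.05 for GCas9 against Cas9 (SE, adjusted p = 0.89 by limma). L3mbtl1, a histone-methyl reader, was at 458, 396 and 446 in WT and 259, 352 and 328 with Cas9, with no overlap and a log2 fold change of -0.48 ± 0.12 (SE, adjusted p = 0.41 by limma).

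H2afx, the histone whose phosphorylation marks breaks, was at 623, 622 and 651 in WT, 496, 633 and 549 with Cas9, and 720, 685 and 725 with GCas9. All GCas9 libraries were above all Cas9 libraries, by 0.35 ± 0.09 on the log2 scale (SE, adjusted p = 0.89 by limma). Polb, the gap-filling polymerase of base excision repair, was at 274, 314, 297 and 344 with GFP, 384, 359, 373 and 390 with Cas9, and 311, 354, 371 and 446 with GCas9. Every Cas9 library was above every GFP library, with a log2 fold change of 0.30 ± 0.11 (SE, unadjusted p = 0.0140, adjusted p = 0.78 by limma). Chek1, the kinase that ATR activates, differed most between the sets in GCas9 against Cas9, by -1.58 ± 0.52 on the log2 scale (SE, adjusted p = 0.99 by limma), on levels of 3.23 to 22.1 in set B. The other genes of smallest p in this list were Smc5 (0.14 ± 0.06) and Bard1 (0.85 ± 0.38) for GCas9 against WT, and Polb (0.26 ± 0.11) and Rmi1 (0.40 ± 0.19) for GCas9 against GFP, as log2 fold changes with SE. Rmi1 was at 0.30 ± 0.19 for Cas9 against GFP, and in GCas9 against Cas9 of set B, Chek1 was at -0.98 ± 0.42 and L3mbtl1 at 0.38 ± 0.21. For the mean of the sets, H2afx was at 0.19 ± 0.07 and L3mbtl1 at 0.30 ± 0.13, and Recql4 differed between the sets by 0.87 ± 0.32.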

How the data were processed

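RNA from 21 striatal libraries was measured by sequencing. Per the labels' protocols, RNA was column-purified, SMARTer cDNA was made from it and Nextera XT gave the libraries, so reads are amplified copies and counting error is a lower bound of the error. Per the submitters' processing notes, the build was GRCm38.p3 and the tools included HTSeq, STAR 2.5.2b, R 3.3.3, DESeq2 and SAMtools, with no roles or parameters given. For each gene symbol the deposited table gives a signal, namely read counts that the authors divided by a size factor per library, and 13121 of 41128 symbols had no read. All values (100%) were whole multiples of 1 step per library within 0.001 reads, which gave back the read counts used in the edgeR and DESeq2 alternatives. Sets were told apart by title numbering and scaling (normalized totals 23.0 to 24.18 M and 8.21 to 8.69 M).

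Values were analysed as log2(normalized count + 1), a scale that understates changes of low genes, with limma 3.58.1 in R 4.3.3 (two-sided, variances moderated along a trend). Testing was limited to genes with a mean of at least 10 in the libraries of the fit, with Benjamini-Hochberg adjustment over all of them and a threshold of 0.05. Each set was fitted with its 3 groups, and all 21 libraries together for the mean of the sets and their difference. The fit was also run on simulated counts with a single fixed dispersion and no outlying libraries. How it does on libraries that stand apart, as some did here, was not tested. Alternatives were a pseudocount of 0.5, no filter, edgeR 4.0.16, DESeq2 1.42.0, quantile normalization, array weights, 2 groups only, a replicate block and leaving out each library.

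The 33 genes and the other lists were chosen with earlier results of these data known. Values of every library are given for the 3 genes of smallest p in each comparison within a set and the 2 of highest level per kilobase in each role, and others were chosen after their values were seen. For the pathway list, log2 fold changes are given for the 2 genes of smallest p in each comparison, with library values for some. Same-numbered libraries had correlations of deviations over 0.1 in every pair only for WT with GCas9 in set A (0.112 to 0.284) and Cas9 with GCas9 in set B (0.121 to 0.329). The highest of all, 0.644, was for Cas9 with GCas9 in set A, whose other pairs were at 0.09 and 0.448. The labels do not say what the number marks. Positions and exon lengths are from GENCODE M21, and promoters from RefSeq.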

Additional observations from a re-analysis of the deposited data

Results flagged for a closer look

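In groups of 4 libraries, 7 of 99 combinations of gene and group held 1 library far from the other 3 (gap over range above Dixon's critical value of 0.829). Chance gives about 1 in 20, or 4.95 of 99. Set A, with groups of 3, was not tested, so all values here are of set B. Lig3 was at 560.4 in GCas9 library 1, where the others were at 473.1 to 476.0. Xrcc1 was at 318.6 in the same library against 282.2 to 285.7, a value inside the GFP range of 305.9 to 344.0. That library also held the highest Lig4, Rnf8 and Trp53bp1 of the set. Xrcc5 was at 145.4 in GCas9 library 2 against 171.2 to 176.0. Among the GFP libraries, Brca2 was at 35.8 in library 1 against 51.3 to 52.8, on 34 reads. Rad54l was at 198.4 in GFP library 4 against 257.8 to 268.8, and Mdc1 at 92.3 in GFP library 2 against 81.9 to 83.1. Xrcc2 was at 90.9 in Cas9 library 4 against 65.3 to 66.1, on 74 reads.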

How the results depend on the processing

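The count of repair genes past the threshold was 0 in all 8 comparisons under each alternative run, the leave-one-out fits included. The smallest adjusted p of any of them was 0.0503 (Trp53bp1, Cas9 against WT, limma array weights) and 0.0799 (Xrcc3, GCas9 against Cas9 in set A, array weights). The median of the repair genes moved by more than the spread in 2 cases, to -0.0621 for GCas9 against WT in set A with quantile normalization and to -0.004 for GCas9 against Cas9 in set A with array weights. Palb2 for Cas9 against WT turned to -0.0653 with quantile normalization and -0.0115 with array weights, and Brca1 for GCas9 against Cas9 in set A to -0.0088 with array weights; the cause was not tested. Among the pathway genes named, these passed with array weights: L3mbtl1 (-0.41) and Slx4 (-0.15) for Cas9 against WT, and Slx4 (0.18) and H2afx (0.37) for GCas9 against Cas9 in set A. Over all genes, the counts past the threshold for Cas9 against WT were 1 in the main fit, 2570 with array weights, 116 with DESeq2, 6 with 2 groups only and 0 with edgeR. For GCas9 against WT they were 1, 6, 218, 1 and 1, for GCas9 against Cas9 in set A 0, 932, 5, 0 and 0, and for GCas9 against GFP 0, 12, 41, 7 and 0. DESeq2 gave 10 for Cas9 against GFP. Without a filter the counts were 4 for the mean of the sets and 1 for their difference. Leaving out single libraries gave 0 to 9 over all comparisons. With the replicate block, 0 repair genes passed in any comparison and the all-gene counts were 2, 2, 0, 0, 5 and 0 within the sets. The main fit did not pair libraries by number, since the labels do not say what the number marks. Same-numbered libraries had correlations of deviations between -0.019 and 0.644 (set A) and between -0.13 and 0.462 (set B). Those of different numbers were lower, between -0.597 and 0.236 and between -0.384 and 0.317, with overlap of the ranges. Whether the libraries are paired by number cannot be decided from the labels. The block also took the repair genes at an unadjusted p under 0.05 from 2 to 0 for GCas9 against GFP (Polq and Poll) and from 1 to 0 for the mean of the sets (Parp2). Array weights in set A raised that count to 4 of 33 for Cas9 against WT (5442 of 15924 genes). They raised it to 3 for GCas9 against WT (1946 of 15924) and to 10 for GCas9 against Cas9 (4515 of 15924). In set B, Exo1, Palb2 and Polq had the fewest reads, at 20 to 130 per group. In set A these were Exo1, Palb2 and Rad54l, at 46 to 172. The part of depth in the spread of these genes was not tested.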
